A study of Mus musculus with 30 samples.

Results

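Type I interferon-stimulated genes were read in CD11b-selected cells, which include microglia, of the mouse lumbar spinal cord after nerve injury or morphine. The set held 43 genes chosen by symbol. The rule used no measured value, but the list was chosen with earlier results of these data known. Of these, 42 had a row in the deposited expression table. The expression of Rnf213 was not analysed here, and its promoter window is counted below. Ifi44 was listed between 0 and 0.643 FPKM, at 0 in 15 of the 30 libraries, and did not reach the level set for testing, which was 1 FPKM in at least 2 libraries. The other 41 were tested, out of 11759 genes tested in all. FPKM counts fragments relative to transcript length and to all those mapped in a library, so levels of different genes are compared per length.

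Type I interferons are cytokines released when a cell senses foreign or misplaced nucleic acid. They bind the receptor Ifnar1/Ifnar2, whose kinases Jak1 and Tyk2 phosphorylate transcription factors such as Stat2. With Irf9, Stat2 is part of ISGF3, a complex that binds the interferon-stimulated response element (ISRE) in the promoters of many genes. The induced proteins inhibit translation, degrade or edit RNA, restrict virus entry, or feed back on the pathway, and microglia, the macrophages that live in the brain and spinal cord, keep many of them at a low level without infection.

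The cells came from C57BL/6J mice perfused with ice-cold PBS. The caudal lumbar cord was dissociated by hand and depleted of myelin, and CD11b-positive cells were then selected on magnetic columns. Monocytes and neutrophils also have CD11b, an integrin. The 9 control libraries were 2 without injury or treatment (naive), 4 on the fixed saline regimen (replicates 3 to 6) and 3 on the escalating saline regimen (replicates 7 to 9). The 14 injury libraries, 2 per group, came 1, 2, 4 or 7 days after sciatic nerve transection (SNT, with days after injury written dpi), 2 or 7 days after chronic constriction injury (CCI) and 7 days after spared nerve injury (SNI). The 7 morphine libraries came from chronic dosing on a fixed (4) or an escalating (3) regimen. Neither doses nor the age or sex of the mice are in the labels. The labels do not tie libraries to separate animals, so p-values measure only how much these libraries vary, and that may be technical.

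The sample is bulk RNA, so fewer cells of a type and less RNA per cell cannot be told apart. Microglial P2ry12 (562 to 1550 FPKM), Tmem119 and Cx3cr1 were above 0 in all 30 libraries. T cell Cd3e was at 0 in 27. Neutrophil S100a8 was never at 0 and ran from 326 to 30880 FPKM. The sum of 13 neutrophil markers was above that of 15 microglial markers in some libraries and below it in others. The neutrophil sum was 63261 FPKM in escalating saline replicate 9, beside a microglial sum of 15645. In fixed morphine replicate 3 these sums were 1911 and 15139. Member values are therefore those of the mixture and not of microglia alone. The libraries also fell on both sides of a wide gap in Cst3, a microglial protease inhibitor. Cst3 was 10120 to 20827 FPKM in 14 libraries and 39503 to 95123 in 16. The low-Cst3 libraries were both naive, SNT 7 dpi replicate 2, all CCI and SNI, all fixed morphine and escalating morphine replicate 1. All saline libraries were high-Cst3. The split was noticed in the data and has no label. Fixed morphine and fixed saline lie wholly on opposite sides of it, so between them morphine and split cannot be told apart. Libraries with the fewest genes at 1 FPKM were SNT 1 dpi replicate 1 (8005), SNT 7 dpi replicate 1 (8466) and SNT 2 dpi replicate 2 (8763).

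The promoters of the genes were read for the ISRE. The genes were listed as interferon-stimulated, a class tied to that element, so its share describes the list and is no separate evidence. RefSeq promoter windows on GRCm38.p6, from 250 bases before to 50 after the gene start, were given for 33 of the 43 genes. The ISRE core, spelled GAAANNGAAA and read on both strands, was in the window of 16 of the 33, or 48.5%, against 3.99% of the 27025 genes with a window, and 17 of the 33 lacked it. The longer GAAANNGAAACT was in 10 of the 33 (30.3%) against 0.303% of genes, and each match of it also holds the core. The GAS letters TTCNNNGAA, a pattern of Stat dimers, were in 8 (24.2%) against 9.55%. Eif2ak2, Ddx58, Ifih1 and Ifitm3 had the core only after the gene start, where no sequence is shown. Those below are shown because these genes carry the expression results or the defining roles; they run 5′ to 3′ on the strand of the gene, and capitals mark each core, which reads as TTTCNNTTTC where it lies on the other strand.
Stat2, chr10:128270266-128270295, plus strand: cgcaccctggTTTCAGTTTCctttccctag
Cxcl10, chr5:92349083-92349112, minus strand: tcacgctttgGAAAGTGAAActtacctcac
Ifit1, chr19:34640775-34640823, plus strand: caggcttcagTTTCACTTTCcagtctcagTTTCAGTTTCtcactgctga
Ifit3, chr19:34583363-34583426, plus strand: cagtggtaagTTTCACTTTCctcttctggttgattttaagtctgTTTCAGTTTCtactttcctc
Gbp2, chr3:142620594-142620623, plus strand: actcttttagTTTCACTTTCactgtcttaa
Gbp3, chr3:142559989-142560024, plus strand: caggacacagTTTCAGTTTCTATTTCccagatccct
Isg15, chr4:156200865-156200906, minus strand: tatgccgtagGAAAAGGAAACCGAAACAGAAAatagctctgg
Oas1a, chr5:120907526-120907555, minus strand: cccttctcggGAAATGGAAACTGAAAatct
Bst2, chr8:71537577-71537612, minus strand: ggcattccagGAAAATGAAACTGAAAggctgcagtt

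The matches are descriptions of letters, not of bound sites. Ifit1 and Ifit3 each carried 2 separate cores. In Gbp3, Oas1a and Bst2 2 cores overlapped, sharing one GAAA or TTTC block, and in Isg15 3 did. The core nearest the RefSeq start began 14 bases before it in Oas1a, 39 in Gbp3, 59 in Gbp2, 66 in Isg15 and 85 in Ifit1. It lay farther out in Ifit3 (122), Bst2 (124), Cxcl10 (213) and Stat2 (222). The Gbp2 core falls just inside the gene as GENCODE M21 draws it, from 142620602. The windows of Irf7, Irf9, Herc6, Dtx3l, Trim25, Ifit2 and Adar did not hold the core letters. Without a window, Usp18, Parp9, Parp14, Oas2, Dhx58, Zbp1, Mx1, Mx2, Rtp4 and Ifi27l2a are named only.

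Several members lie side by side on GRCm38 (GENCODE M21). Ifit2, Ifit3 and Ifit1 are on the plus strand of chromosome 19, 7.11 and 52.1 kb apart. Gbp3 and Gbp2 are 47.4 kb apart on chromosome 3, Oas2 and Oas3 3.24 kb apart on chromosome 5, and Mx1 and Mx2 72.4 kb apart, head to head, on chromosome 16. Dtx3l (chr16:35926511-35939151, minus strand) and Parp9 (chr16:35938470-35972605, plus strand) overlap by 682 bases. Smart-Seq2 libraries carry no strand, so reads in that overlap cannot be told apart. Values of Ifit3, Oas1a, Gbp2 and Trim30a are uncertain in another way, since each has a close paralog with which reads can be shared. C57BL/6 mice carry an Mx1 allele that lacks exons, and Mx2 is annotated as a polymorphic pseudogene, so both report on transcription and not on a working protein.

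Across the libraries the members were mostly low transcripts. By median FPKM the highest were Lgals3bp (92.2), the tethering factor Bst2 (76.3), the entry inhibitor Ifitm3 (75.0), Slfn2 (45.8) and Ifi27l2a (40.9). The lowest of those tested were Oas2 (0.714), the radical SAM enzyme Rsad2 (1.35) and Ifit1 (1.42). The score used below is the mean of log2(FPKM + 1) over the 41 genes, and it has no p-value because the list was chosen with results of these data known. Its 3 kinds of control had nearly the same mean: 2.99 in naive (2.97 and 3.01), 3.00 ± 0.28 in fixed saline (SD, n = 4; 3.26, 2.72, 2.80 and 3.23) and 2.99 ± 0.15 in escalating saline (SD, n = 3; 2.82, 3.03 and 3.11). Naive libraries were low-Cst3 and saline libraries high-Cst3. None of the 41 members differed among the kinds of control at the threshold used throughout, an adjusted p under 0.05 (limma, Benjamini-Hochberg over all genes), where 0.102% of all genes did. Ifi35, an interferon-induced leucine zipper protein, had the lowest p of the members (adjusted p 0.123 by limma), and 1 of 41 passed an unadjusted 0.05 (2.44%), below the 13.5% of all genes that did.

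After injury the score was highest at 7 dpi of the injuries that spare part of the nerve, and the 2 lowest values were in single libraries early after transection. SNT gave 2.33 and 2.69 at 1 dpi, 2.98 and 2.36 at 2 dpi, 2.88 and 2.75 at 4 dpi, and 2.71 and 3.06 at 7 dpi. The 2 lowest, SNT 1 dpi replicate 1 (2.33) and SNT 2 dpi replicate 2 (2.36), are among the 3 libraries with the fewest genes. Without them SNT gave 2.69 at 1 dpi and 2.98 at 2 dpi, beside 2.75 to 2.88 at 4 dpi. CCI gave 3.12 and 2.98 at 2 dpi and 3.28 and 3.43 at 7 dpi, and SNI at 7 dpi gave 3.45 and 3.45. The 4 CCI and SNI libraries at 7 dpi (3.40 ± 0.08, SD, n = 4) lay above the highest control, 3.26, and 7 of the 8 SNT libraries lay below the median control, 3.01. All CCI and SNI libraries were low-Cst3, while 7 of the 8 SNT libraries and 7 of the 9 controls were high-Cst3. The kind of injury and the split therefore largely coincide and cannot be fully told apart here. Fixed morphine gave 3.67, 3.18, 3.26 and 3.84 (3.49 ± 0.32, SD, n = 4) and overlapped fixed saline. Escalating morphine gave 3.91, 3.12 and 2.95 (3.33 ± 0.51, SD, n = 3), of which only the first, the highest of all 30, lay above every control.

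**Figure D1:**
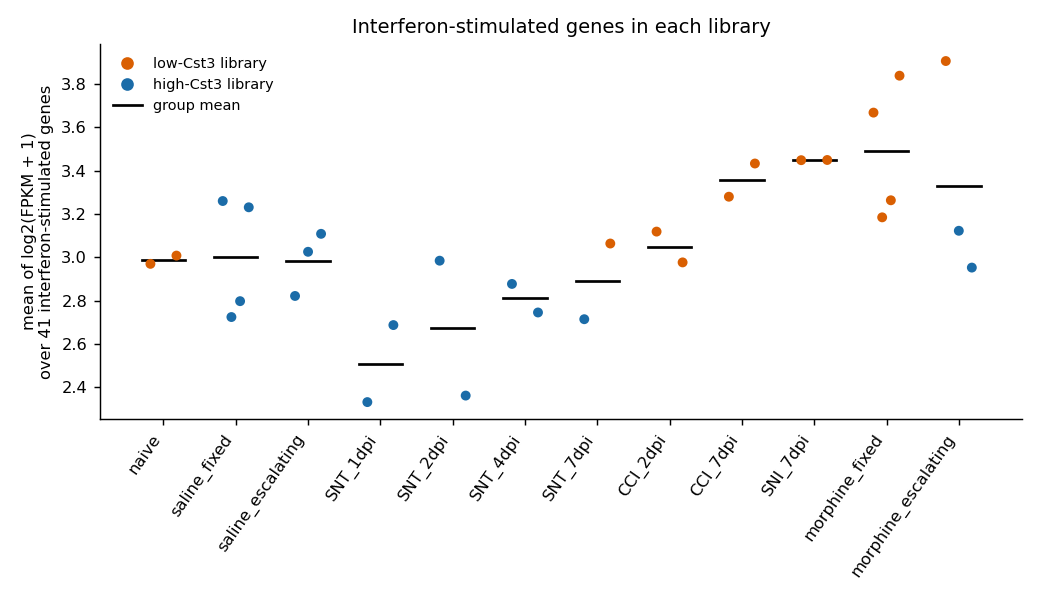
Each point is 1 library, with the mean of log2(FPKM + 1) over the 41 tested interferon-stimulated genes on the y axis, the 12 groups on the x axis, bars at the group means and colour for the Cst3 set. CCI and SNI at 7 dpi sit between 3.28 and 3.45, above all 9 controls, and escalating morphine replicate 1 stands at 3.91 while replicates 2 and 3 lie at 3.12 and 2.95.

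Within the low-Cst3 libraries, CCI and SNI at 7 dpi and morphine again lay above the controls, which there are naive alone. The 1 SNT library of that set lay above both naive libraries, so the low place of SNT was not seen there. Naive libraries had 2 of the 3 lowest scores there, 2.97 and 3.01, with CCI at 2 dpi between 2.98 and 3.12 and SNT 7 dpi replicate 2 at 3.06. The 2 CCI and 2 SNI libraries at 7 dpi followed, and morphine spanned 3.18 to 3.91. The low-Cst3 set as a whole ran from 2.97 to 3.91 (median 3.27) and the high-Cst3 set from 2.33 to 3.26 (median 2.85). The most extreme libraries were the same for many members at once: escalating morphine replicate 1 held the highest value of 10 members and fixed morphine replicate 4 of 8, while SNT 1 dpi replicate 1 held the lowest of 15, counting values tied at a listed 0, and SNT 2 dpi replicate 2 and SNT 7 dpi replicate 1 of 9 each. The 3 libraries with the low values are those with the fewest genes. In escalating morphine replicate 1 and fixed morphine replicate 4, 39 of the 41 members stood above their own control median. The count was 35, 28 and 29 in the other fixed morphine libraries, 27 and 22 in the other escalating ones, 32 to 35 in the 4 of CCI and SNI at 7 dpi, 7 to 28 in SNT and in CCI at 2 dpi, and 9 to 27 in the controls themselves. Those same 2 libraries had the highest monocyte and neutrophil marker sums of the 7 morphine libraries. The monocyte sum was 920 FPKM in escalating morphine replicate 1 and 1920 in fixed morphine replicate 4, against 154 to 265 in the other 5, and the neutrophil sum was 13941 and 19084 against 1911 to 4874. In controls these sums ran from 353 to 2859 and from 5799 to 63261. Their part in the extremes was not tested.

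**Figure D2:**
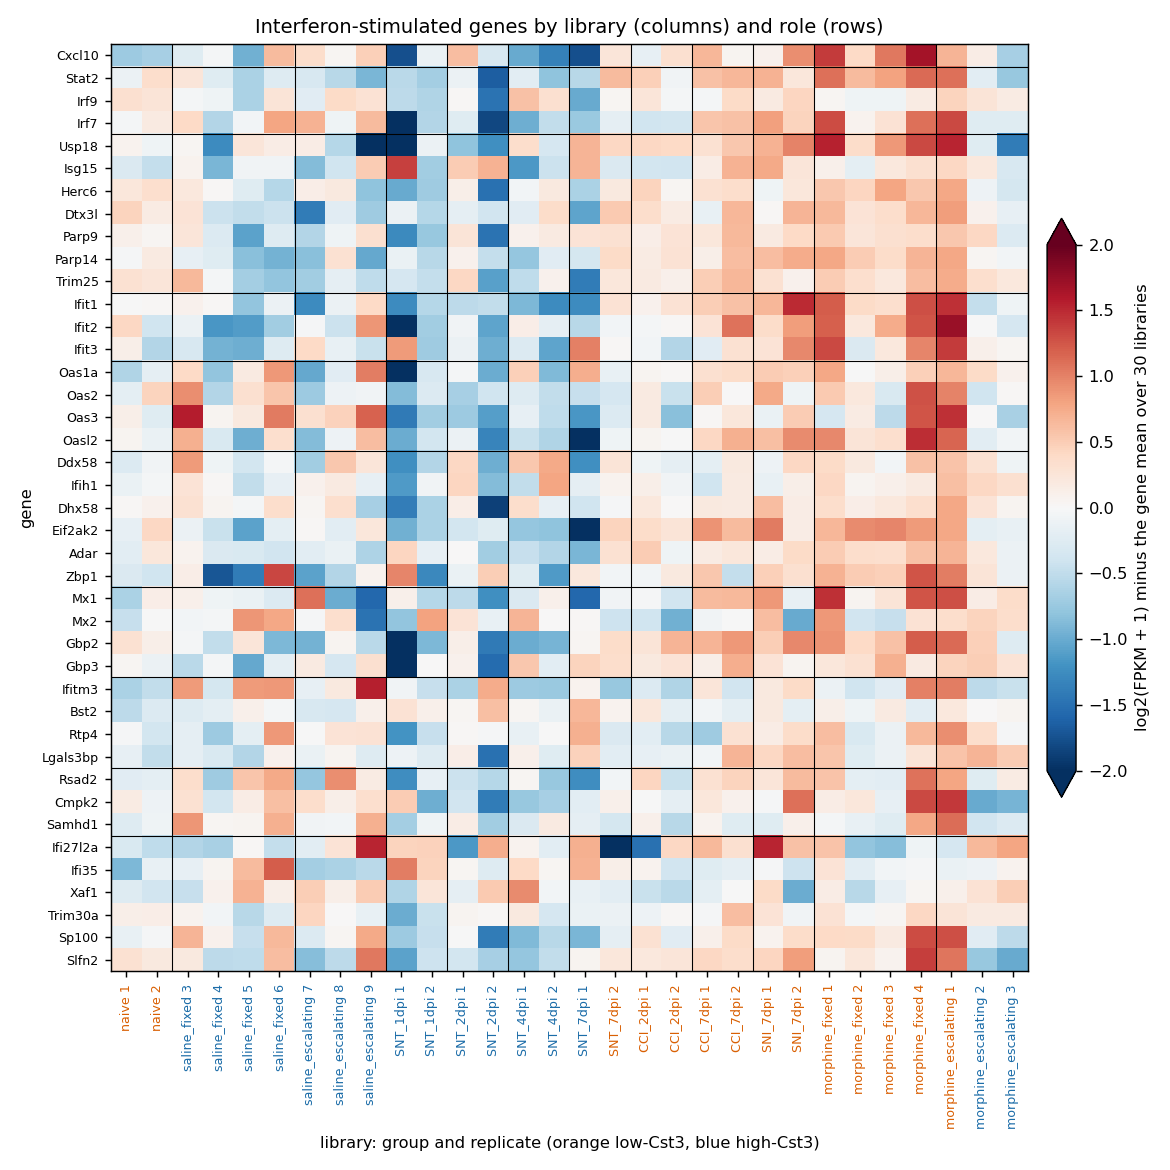
Colour gives log2(FPKM + 1) minus the mean of the gene over 30 libraries (scale limited to 2 either way), with the 41 members in rows, in blocks by role, and the libraries in columns, in blocks by group. The columns of SNT 1 dpi replicate 1 and SNT 2 dpi replicate 2 are mostly blue, and those of fixed morphine replicates 1 and 4 and escalating morphine replicate 1 mostly red.

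Of the 3 transcription factors, Stat2 was called higher in fixed morphine than in fixed saline and Irf9 and Irf7 did not pass. Stat2, the subunit that gives ISGF3 its activation domain, was 15.3, 10.8, 12.3 and 15.6 FPKM in fixed morphine against 7.96, 5.39, 3.87 and 5.35 in fixed saline. No fixed morphine library overlapped fixed saline, and the log2 difference was 1.14 ± 0.34 (SE; adjusted p 0.0342, limma). Irf9, the DNA-binding subunit, was 22.5, 20.5, 20.5 and 24.5 FPKM against 21.2, 20.4, 13.65 and 26.3, overlapping, with a difference of 0.13. Irf7, the factor that amplifies interferon production, was 20.6, 8.12, 9.65 and 17.7 FPKM against 10.5, 4.78, 7.38 and 14.05. Its groups also overlapped, and replicates 1 and 4 of fixed morphine were the high ones. In escalating morphine Stat2 was 15.3, 5.58 and 3.50 FPKM, with the first replicate as high as fixed morphine and the other two within the range of escalating saline or just above it (5.06, 4.195 and 3.02).

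Stat2 after injury was 10.4 and 10.98 FPKM in CCI and 11.2 and 7.93 in SNI at 7 dpi, beside 3.02 to 8.71 (median 5.35) in the 9 controls. The CCI libraries lay above every control and 1 SNI library did not. For both injuries together the difference was 0.81 ± 0.32 (adjusted p 0.268, limma). CCI at 2 dpi gave 9.52 and 6.23 FPKM, and the 8 SNT libraries ran from 1.43 to 10.75 with a median of 4.19, the highest being the low-Cst3 library at 7 dpi. Irf7 in those SNT libraries was 1.01 to 6.69 FPKM (median 4.51) against 4.78 to 14.05 (median 8.89) in controls. The naive values, 6.03 and 8.71 for Stat2 and 7.50 and 8.89 for Irf7, lie within these control ranges. Irf9 overlapped the controls (13.65 to 28.6 FPKM, median 26.1) in each injury group or lay near them: 24.6 and 29.6 in SNI, 21.2 and 28.65 in CCI at 7 dpi, and 7.13 to 33.1 (median 18.5) in SNT.

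Of 6 RNA sensors and RNA-directed effectors, Eif2ak2 and Adar were called higher in fixed morphine and the other 4 did not pass. Eif2ak2 encodes PKR, the kinase that halts translation on double-stranded RNA. Its values were 7.02, 8.71, 8.94 and 8.11 FPKM in fixed morphine and 3.63, 2.69, 1.39 and 3.39 in fixed saline, with no overlap, a difference of 1.32 ± 0.27 and the lowest p of any member (adjusted p 0.00862, limma). Eif2ak2 was the only one of the 9 called members that stayed called when each of the 8 libraries was left out in turn (adjusted p 0.0139 to 0.0343, limma). In escalating morphine it was 7.62, 3.40 and 3.55 FPKM against 4.115, 3.35 and 4.87, again with the first replicate high. The difference of the responses to the 2 regimens was 1.19 ± 0.41 and did not pass (adjusted p 0.318, limma).

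Eif2ak2 in the injured cords was 8.40 and 6.81 FPKM in CCI and 9.33 and 4.57 in SNI at 7 dpi and 5.50 and 4.996 in CCI at 2 dpi. Controls ran from 1.39 to 5.71 (median 3.49), with naive at 3.49 and 5.71. Both CCI libraries and 1 SNI library at 7 dpi lay above all controls. SNT gave 0.0330 to 5.84 FPKM (median 2.09), the lowest being SNT 7 dpi replicate 1. Adar, the enzyme that edits adenosine to inosine in double-stranded RNA, rose from 10.7, 8.07, 7.95 and 7.47 FPKM in fixed saline to 14.8, 13.1, 13.04 and 15.7 in fixed morphine, without overlap (0.67 ± 0.21, adjusted p 0.0392, limma). In escalating morphine it was 16.8, 11.8 and 9.16 FPKM against 8.52, 9.14 and 6.23, also without overlap but not past the threshold (0.58 ± 0.24, adjusted p 0.217, limma). At 7 dpi Adar was 11.4 and 11.95 FPKM in CCI and 11.3 and 13.4 in SNI, beside 6.23 to 11.96 (median 8.52) in controls.

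All 3 IFIT genes, whose proteins bind viral or unmethylated RNA ends, had positive differences in fixed morphine, and 2 were called. Ifit2 was 9.47, 4.29, 6.67 and 9.95 FPKM in fixed morphine and 3.21, 1.05, 1.12 and 1.83 in fixed saline, which did not overlap (1.62 ± 0.44, adjusted p 0.0251, limma). Ifit3 was 23.85, 7.15, 10.6 and 18.7 FPKM against 6.98, 4.16, 4.06 and 7.37, where 1 morphine library fell below the highest saline library (1.18 ± 0.39, adjusted p 0.0485, limma). Ifit1, which carries the pair of ISRE cores printed above, was 4.52, 2.10, 2.03 and 4.84 FPKM against 1.54, 1.42, 0.380 and 1.19. Its groups were separate, yet it did not pass (1.01 ± 0.45, adjusted p 0.124, limma). In escalating morphine the first replicate was again the high one for each: Ifit1 gave 5.58, 0.7155 and 1.26 FPKM, Ifit2 14.2, 3.54 and 2.63 and Ifit3 25.35, 9.73 and 9.25. The escalating saline values were 0, 1.20 and 2.15 for Ifit1, 3.49, 2.41 and 7.42 for Ifit2 and 12.2, 8.05 and 6.34 for Ifit3.

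Ifit1 had the lowest p of the members in SNI at 7 dpi and in CCI and SNI together. It was 2.77 and 5.69 FPKM in SNI and 2.36 and 2.60 in CCI at 7 dpi, above all 9 controls (0 to 2.15, median 1.39). The difference was 1.27 ± 0.40 for SNI (adjusted p 0.999, limma) and 1.00 ± 0.31 for both injuries (adjusted p 0.188, limma), so neither passed. CCI at 2 dpi gave 1.55 and 1.92 FPKM, within the control range. Ifit1 was listed at 0 in 3 of the 8 SNT libraries, whose highest value was 1.93. A listed 0 can be a failed estimate as well as an absence of reads. Ifit2 was 4.52 and 8.765 FPKM in CCI and 4.92 and 7.17 in SNI at 7 dpi beside 1.05 to 7.42 (median 2.48) in controls, and Ifit3 was 7.51 and 11.4 in CCI and 11.1 and 18.4 in SNI beside 4.06 to 12.2 (median 6.98). Both overlapped the controls.

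Among the 4 GTPases, Gbp2 and Gbp3 were called higher in fixed morphine. These guanylate-binding proteins coat pathogen vacuoles and respond to interferon gamma as well as to type I interferon. Gbp2 was 9.22, 6.20, 7.17 and 11.6 FPKM against 4.34, 2.88, 5.47 and 1.945 in fixed saline (1.07 ± 0.34, adjusted p 0.0464, limma). Gbp3 was 9.61, 10.2, 13.9 and 9.28 FPKM against 5.26, 7.81, 3.46 and 6.89 (0.81 ± 0.24, adjusted p 0.0347, limma). Neither gene's groups overlapped. In escalating morphine Gbp2 was 11.1, 6.61 and 3.55 FPKM against 1.85, 4.66 and 2.78 (0.93 ± 0.40, adjusted p 0.231, limma), and Gbp3 was 11.3, 11.7 and 9.90 against 9.21, 6.185 and 10.3. Mx1 (0.86) and Mx2 (-0.31) were not called in fixed morphine.

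Gbp2 was the only member to vary among the 12 groups past the threshold (adjusted p 0.0183, limma F-test), where 7.72% of all genes did, and 10 of 41 members (24.4%) passed an unadjusted 0.05 there, near the 25.8% of all genes. Without SNT 1 dpi replicate 1, where Gbp2 is listed at 0, no member was called, and with the Cst3 covariate none was. The count was 5 (12.2%) without SNT 1 dpi replicate 2, SNT 7 dpi replicate 1 or escalating morphine replicate 1, where 14.4%, 17.1% and 10.4% of all genes were called. It was 10 (24.4%) without SNT 2 dpi replicate 1 against 22.3% of genes, 11 (26.8%) without SNT 7 dpi replicate 2 against 28.4%, and 2 (4.88%) without saline replicate 8 against 7.12%, so these counts moved with those of all genes. Gbp2 was 7.755 and 8.93 FPKM in CCI and 6.71 and 9.64 in SNI at 7 dpi, all 4 above the controls (1.85 to 5.77, median 4.34). CCI at 2 dpi gave 5.55 and 7.77, of which 1 lay above the controls. SNT ran from 0 to 6.05 FPKM (median 1.89), with 0 and 1.92 at 1 dpi. Gbp3 at 7 dpi was 8.81 and 14.03 FPKM in CCI and 9.89 and 8.45 in SNI beside 3.46 to 10.3 (median 7.36) in controls, and its SNT libraries ran from 0.892 to 12.1 (median 8.37).

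Cxcl10, the only chemokine of the set, draws T cells through Cxcr3. It was 7.88, 3.46, 6.001 and 9.68 FPKM in fixed morphine and 1.84, 2.27, 0.728 and 4.23 in fixed saline, with 1 morphine library below the highest saline library (1.28 ± 0.38, adjusted p 0.0331, limma). In escalating morphine it was 4.365, 2.745 and 1.13 FPKM against 3.285, 2.47 and 3.70, with a difference of -0.24, and the regimens' responses differed by 1.52 ± 0.57 without passing. Naive libraries had 1.04 and 1.13 FPKM, below 6 of the 7 saline libraries. At 7 dpi CCI gave 4.33 and 2.49 FPKM and SNI 2.56 and 5.42 beside 0.728 to 4.23 (median 2.27) in the 9 controls, and SNT gave 0 to 4.18 (median 1.18), listed at 0 in 2 libraries.

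All 7 regulators that act through ISG15, ubiquitin or ADP-ribose had positive differences in fixed morphine (median 0.72), and 1, Parp14, was called. Parp14 encodes an ADP-ribosyltransferase that acts in macrophage activation. It was 8.95, 7.30, 6.51 and 8.30 FPKM against 4.195, 3.90, 2.265 and 2.02 in fixed saline, with no overlap (1.13 ± 0.31, adjusted p 0.0266, limma). At 7 dpi it was 5.33 and 7.94 FPKM in CCI and 7.95 and 8.71 in SNI beside 1.86 to 6.19 (median 3.90) in controls, a difference of 0.92 ± 0.30 for both injuries (adjusted p 0.200, limma). Both SNI libraries lay above every control. Escalating morphine gave 8.89, 4.95 and 4.58 FPKM against 2.25, 6.19 and 1.86.

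Usp18 removes ISG15 from proteins and blocks the receptor, which ends the response. It was 15.7, 6.37, 9.45 and 13.4 FPKM in fixed morphine against 4.87, 1.41, 5.77 and 5.39 in fixed saline, with no overlap and no call (1.23). Replicates 1 and 4 of fixed morphine were the high ones, and in escalating morphine, 15.5, 3.84 and 1.17 FPKM, replicate 1 was. At 7 dpi it was 6.05 and 7.35 FPKM in CCI and 8.33 and 10.4 in SNI, above all 9 controls (0 to 5.77, median 4.87). SNT ran from 0 to 8.21 (median 3.91).

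Isg15 itself, the ubiquitin-like modifier that Usp18 removes, did not pass either. It was 5.47, 4.26, 5.98 and 6.57 FPKM in fixed morphine against 5.365, 2.20, 4.77 and 4.775, overlapping (0.35). Its highest value of all 30 libraries, 14.6, was in SNT 1 dpi replicate 1, the library that was lowest or tied lowest for 15 other members. At 7 dpi CCI gave 5.69 and 8.84 FPKM and SNI 9.26 and 6.16 beside 2.20 to 7.62 (median 3.93) in controls. Escalating morphine gave 7.08, 5.99 and 3.85 against 2.30, 3.60 and 7.615.

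Dtx3l and Trim25, both ubiquitin ligases, had among the lowest p of the members in escalating morphine. Dtx3l, the partner of Parp9, was 19.3, 10.9 and 9.10 FPKM against 3.29, 8.615 and 5.92 (1.03 ± 0.33, adjusted p 0.137, limma). Trim25, which ubiquitinates the RNA sensor RIG-I, was 6.85, 4.95 and 4.48 FPKM against 1.90, 3.14 and 2.31 (0.90 ± 0.34, adjusted p 0.187, limma). In neither did the groups overlap. In fixed morphine Dtx3l was 16.7, 12.7, 13.4 and 17.0 FPKM against 12.7, 7.42, 7.01 and 7.43 in fixed saline, and Trim25 was 5.66, 4.94, 4.46 and 6.21 against 6.38, 3.59, 1.94 and 1.72. Saline replicate 3 was the high one for both. At 7 dpi Dtx3l was 9.185 and 16.8 FPKM in CCI and 10.5 and 17.03 in SNI (controls 3.29 to 14.4, median 7.43), and Trim25 was 5.65 and 6.47 in CCI and 4.80 and 4.02 in SNI (controls 1.72 to 6.38, median 3.14).

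The membrane group, a label that here also takes in a secreted protein, held 4 genes, the 3 most abundant members among them. The differences of the 4 genes in fixed morphine ran from -0.49 to 0.36. Lgals3bp, a secreted glycoprotein that binds galectin-3, was 148, 159.5 and 142 FPKM in escalating morphine against 90.9, 103 and 83.5, with no overlap (0.69 ± 0.22, adjusted p 0.139, limma). In SNI at 7 dpi it was 133 and 154 FPKM, above all controls (66.4 to 105.5, median 88.4), and in CCI 96.1 and 160.5 (both injuries 0.63 ± 0.25, adjusted p 0.270, limma). Fixed morphine gave 147, 84.5, 91.6 and 119.8 FPKM against 88.4, 80.9, 66.4 and 105.5.

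Ifitm3, which blocks fusion of viruses in endosomes, had a negative difference in fixed morphine. It was 79.5, 64.85, 73.15 and 173 FPKM in fixed morphine against 155, 67.0, 156 and 158 (-0.49), and 55.4 to 60.7 in naive. Its highest value, 254, was in escalating saline replicate 9, the library with the highest neutrophil marker sum, 63261 FPKM. That sum was 15362 to 28997 in fixed saline replicates 3, 5 and 6 and 7476 in replicate 4. In fixed morphine it was 19084 in replicate 4 and 1911 to 3836 in replicates 1 to 3. SNT 7 dpi replicate 1 had a sum of 19393 with Ifitm3 at 90.4. The part of neutrophils in the Ifitm3 values was not tested. Bst2 was 81.35, 70.6, 84.7 and 64.6 FPKM in fixed morphine, 62.2, 65.4, 80.5 and 72.7 in fixed saline and 85.9 and 65.2 in SNI. Its 2 highest values, 118.8 and 113.4, were in SNT 7 dpi replicate 1 and SNT 2 dpi replicate 2, both among the 3 libraries with the fewest genes.

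**Figure D3:**
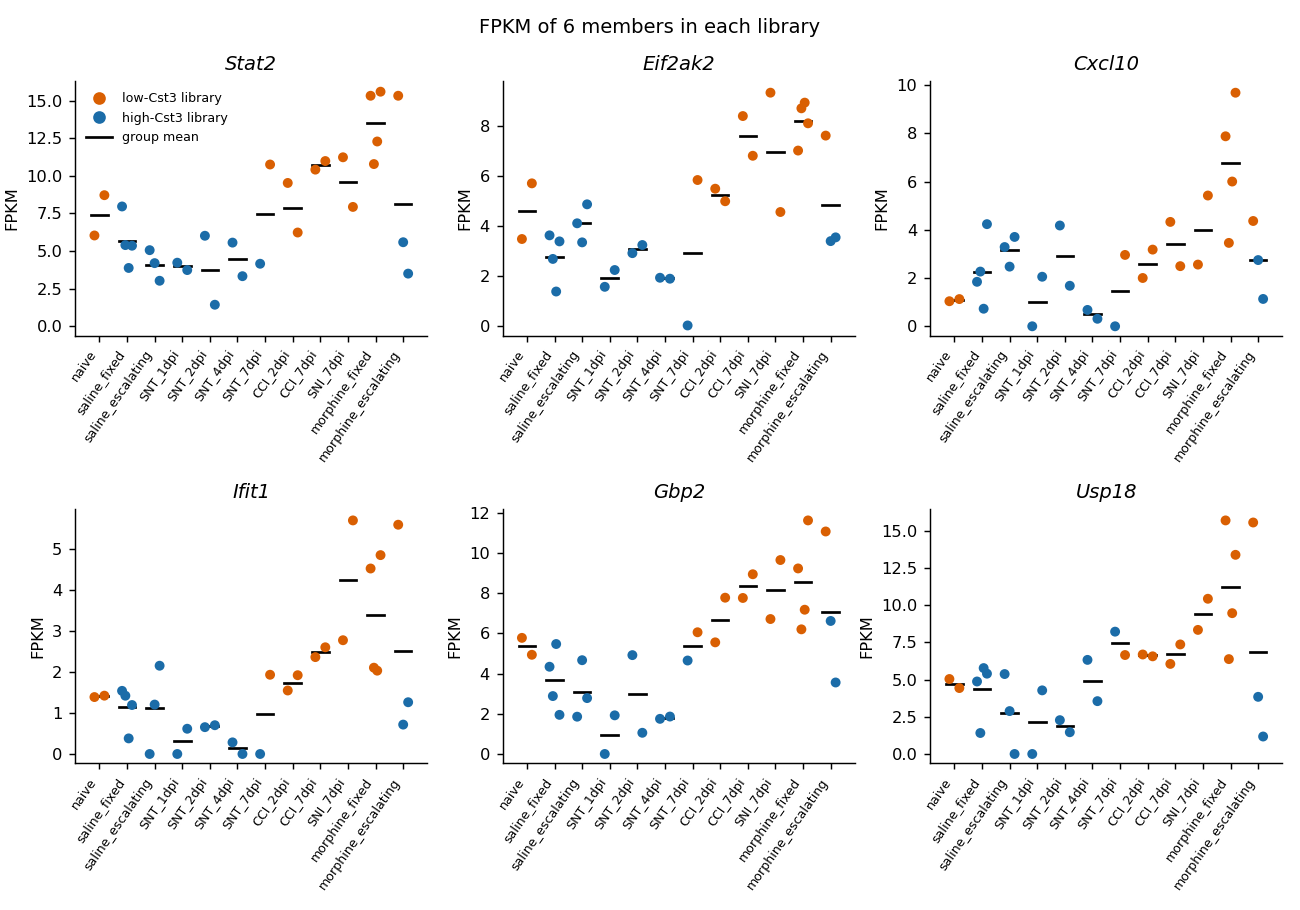
FPKM of Stat2, Eif2ak2, Cxcl10, Ifit1, Gbp2 and Usp18 (y axes, 1 panel each, starting just under 0) in each library by group (x axis), with bars at group means and colour for the Cst3 set. In all 6 panels escalating morphine replicate 1 is the highest of its 3, and Ifit1, Gbp2 and Usp18 in CCI and SNI at 7 dpi lie above every control.

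Counted over the set, 9 of 41 members (22.0%) were called higher in fixed morphine than in fixed saline, where 13.6% of all genes were higher, and 0 members were lower, where 4.46% of all genes were. These 9 were Eif2ak2, Ifit2, Parp14, Cxcl10, Stat2, Gbp3, Adar, Gbp2 and Ifit3. In 10 members every fixed morphine library lay above every fixed saline library, 24.4% of the set against 22.1% of all genes, so on that count the members were near the background. The difference was positive in 35 of 41 members (85.4%) against 63.7% of all genes, and the median was 0.37 against 0.22. By role the medians were 1.28 for Cxcl10 alone, 1.18 in the IFIT genes and 0.83 in the GTPases. They were 0.72 in the ISG15, ubiquitin and ADP-ribose group, 0.56 in the transcription factors and 0.47 in the RNA sensors and effectors. Genes of other roles had 0.23 and the membrane group 0.19. The 4 OAS genes, which make the activator of RNase L, had 0.15 and the 3 nucleotide enzymes 0.08. Oas3 (-0.57), Ifitm3, Ifi35, Samhd1, Mx2 and Xaf1 were the 6 with a negative difference. Other scalings moved the median of all genes, to -0.02 by quantile, 0.04 by median-ratio and 0.53 by TPM, and that of the members was 0.28, 0.16 and 0.69, above it in each.

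The calls did not hold with the Cst3 set as a covariate, added after the split was seen, which left 0 of 41 members called. Under that covariate, which rests on escalating morphine replicate 1 against replicates 2 and 3 alone, the median was -0.25, and Stat2 (-0.44), Ifit2 (-0.28) and Ifit3 (-0.15) changed sign. When 1 of the 8 libraries was left out, between 1 member (without saline replicate 5 or morphine replicate 3) and 8 members (without saline replicate 3) were called. Of those 8, 5 were among the 9. Called in either direction, the members were 2.44% to 19.5% of the set and all genes 6.44% to 18.4%, and the share of the members was above that of the genes without saline replicate 3 (19.5% against 18.4%) or morphine replicate 2 (9.76% against 6.44%) and below it without any other library. Gbp2 lost its call without any 1 of the 8.

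Naive is the only control on the low-Cst3 side, and fixed morphine was compared with it among low-Cst3 libraries alone, a comparison added after the split was seen. The same 4 morphine libraries enter it, so it is no second sample. Naive is 2 libraries from mice without any regimen, so morphine and the handling of the regimen cannot be told apart in it. Of the 41 members 40 had a positive difference (97.6%) against 77.1% of all genes, with a median of 0.44 against 0.23. None was called, as for all 11759 genes (0%), and 10 passed an unadjusted 0.05 in the higher direction (24.4%) against 7.25% of all genes. Every fixed morphine library lay above both naive libraries in 21 members (51.2%) against 18.9% of genes. Cxcl10 had the lowest p, at 1.82 ± 0.38 (adjusted p 0.541, limma), with 1.04 and 1.13 FPKM in naive. The DNA and RNA sensor Zbp1 (1.07), Usp18 (1.03), Stat2 (0.80), Eif2ak2 (0.74) and Oas1a (0.72) followed. Irf9 was the 1 member with a negative difference (-0.28), below both naive libraries (27.5 and 26.1 FPKM) in all 4.

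In escalating morphine 0 of 41 members were called, where 0.034% of all genes were, and 5 passed an unadjusted 0.05 in the higher direction (12.2%) against 14.7% of all genes. The median was 0.34 against 0.16 for all genes, and 0.12 without escalating morphine replicate 1. In 7 members (17.1%) every morphine library lay above every escalating saline library, against 13.3% of genes: Dtx3l, Trim25, Adar, Lgals3bp, the sensor Ifih1, Mx2 and Ifi35. The difference of the 2 regimens' responses was called in 0 members (0.0085% of all genes), and in 1 without escalating morphine replicate 1 (2.44%, against 3.73% of all genes). Past an unadjusted 0.05 were Eif2ak2 and Cxcl10, both with a larger difference under the fixed regimen (4.88% against 5.76% of all genes), and Ifi35, with a negative one (2.44% against 5.95%), so the members were not above the background.

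**Figure D4:**
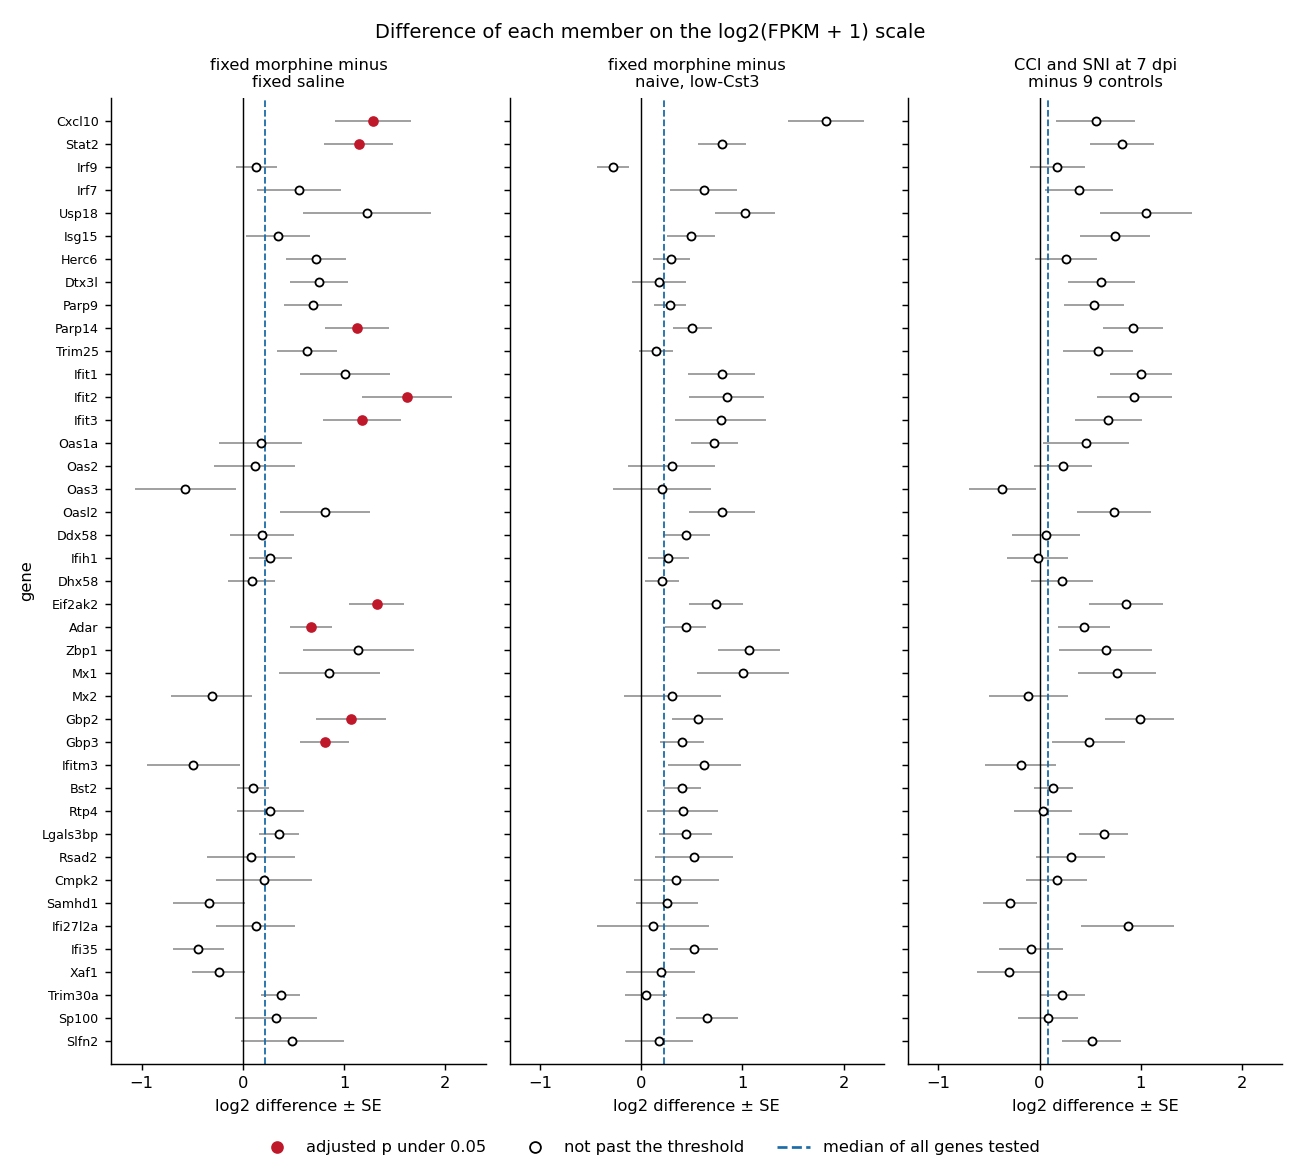
Differences on the log2(FPKM + 1) scale (x axes, points with SE bars) of the 41 members (y axis) for fixed morphine minus fixed saline, fixed morphine minus naive, and CCI and SNI at 7 dpi minus the 9 controls. Filled points passed an adjusted p of 0.05, 9 in the first panel and 0 in the others, and the dashed line is the median of all genes tested (0.22, 0.23 and 0.09).

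After injury no comparison with the controls called a member by limma. The share of all genes called was 0% in CCI at 7 dpi, SNI at 7 dpi, both together, and SNT at 2 and 4 dpi, 0.017% in SNT at 1 dpi, 0.204% in SNT at 7 dpi and 0.0085% in CCI at 2 dpi. For CCI and SNI at 7 dpi together the difference was positive in 34 of 41 members (82.9%) against 58.0% of all genes, with a median of 0.46 against 0.09 (0.71 against 0.30 on TPM, 0.31 against -0.03 by quantile, 0.36 against 0.00 by median-ratio). Unadjusted, 9 members were higher (22.0%) against 9.58% of genes. In 3 members, Usp18, Ifit1 and Gbp2, all 4 libraries lay above all 9 controls (7.32%), against 0.935% of genes. With each library weighted by its own spread (limma array weights), 13 members were called (31.7%) against 12.3% of all genes. Within the low-Cst3 libraries, where naive is the control, the median was 0.34 against 0.07, with 0 called.

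Taken singly, SNI and CCI at 7 dpi gave like medians against unlike backgrounds. In SNI 35 of 41 differences were positive (85.4%, median 0.42) against 51.1% of all genes (median 0.01). Here 6 members passed an unadjusted 0.05, all higher (14.6%), against 2.41% of genes. In CCI at 7 dpi 31 were positive (75.6%, median 0.39) against 63.5% of genes (median 0.17), and 2, Gbp2 and Stat2, passed (4.88%) against 8.23% of genes. CCI at 2 dpi had 25 positive differences (61.0% against 63.1% of genes) and 0 members past an unadjusted 0.05. Its median was 0.07 against 0.17 for all genes, and below 0 under quantile (-0.15) or median-ratio (-0.11) scaling. Both injuries were also compared with SNT at 7 dpi, with no control in the contrast. There 34 of 41 differences were positive (82.9%, median 0.49) against 55.4% of genes (median 0.08), none was called where 0.102% of genes were, and 8 passed unadjusted in the higher direction (19.5%) against 4.01% of genes. The lowest p belonged to Oasl2 (1.73 ± 0.53, adjusted p 0.548, limma), followed by Eif2ak2 (1.60 ± 0.53), Ifit1 (1.29) and Mx1 (1.32). SNT 7 dpi replicate 1, one of the 3 libraries with the fewest genes, was far below replicate 2 in each of these. Replicate 1 was also high-Cst3, while replicate 2 and the CCI and SNI libraries were low-Cst3. Oasl2 was 0.318 and 4.18 FPKM in replicates 1 and 2, Eif2ak2 0.0330 and 5.84, Ifit1 0 and 1.93 and Mx1 0 and 1.84. Replicate 2 lay within the values of CCI and SNI at 7 dpi for Eif2ak2 (4.57 to 9.33) and Mx1 (1.69 to 4.42). It lay below them for Oasl2 and Ifit1. With 1 library left out in turn, the median of the members ran from 0.28 to 0.68.

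In the SNT libraries most members had negative differences, 30 of 41 at 1 and 2 dpi, 24 at 4 dpi and 25 at 7 dpi. The share that was positive was 26.8% at 1 dpi against 32.8% of all genes, 26.8% against 29.4% at 2 dpi, 41.5% against 53.1% at 4 dpi and 39.0% against 52.5% at 7 dpi. Oas3 and Irf7 had the lowest p in the first 2 time points. Oas3, one of the synthetases that activate RNase L, was 0 and 0.6455 FPKM at 1 dpi, 0.609 and 0.235 at 2 dpi, 1.38 and 0.8715 at 4 dpi and 0.181 and 1.20 at 7 dpi, beside 1.24 to 6.88 (median 2.33) in controls. Only the highest SNT value overlapped the controls. The difference was -1.57 ± 0.43 at 1 dpi (adjusted p 0.138, limma), -1.44 ± 0.43 at 2 dpi and -1.24 ± 0.43 at 7 dpi, none called. Irf7 was 1.01 and 4.81 FPKM at 1 dpi and 6.36 and 1.47 at 2 dpi. At 1 dpi 10 members were lower at an unadjusted 0.05 (24.4%) against 11.8% of all genes, and the median was -0.62 against -0.25. At 2 dpi these were 6 (14.6%) against 5.84%, with a median of -0.31 against -0.23.

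At 4 dpi, where neither library was among those with the fewest genes, 6 members were lower at an unadjusted 0.05 (14.6%) against 0.944% of all genes. They were Sp100 (-0.87), Cmpk2 (-0.88), Ifitm3 (-1.03), Irf7 (-0.95), Ifit1 (-0.88) and Cxcl10 (-1.06). Ifitm3 was 51.8 and 50.8 FPKM at 4 dpi, beside 55.4 and 60.7 in naive and 67.0 to 254 in saline. Ifit1 (0.283 and 0 FPKM) and Cxcl10 (0.678 and 0.3115) were under 1 FPKM in both 4 dpi libraries, while Sp100, Cmpk2 and Irf7 were above it. The median of the members was -0.10 against 0.03 for all genes, with 17 differences positive and 24 negative. At 7 dpi the median was -0.16 and turned to 0.19 without the 3 libraries with the fewest genes, as that at 2 dpi turned to 0.09. Without the second replicate of SNT, 7 members were called at 1 dpi (17.1%, against 10.4% of all genes) and 2 at 7 dpi (4.88% against 8.56%), and without the first replicate 5 at 2 dpi (12.2% against 9.72%). Each of these leaves the SNT group as 1 library with few genes, assumed to vary like the other groups. Of the 8 SNT libraries 7 were high-Cst3.

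Members with and without the ISRE core in the window were set side by side. In fixed morphine against fixed saline the median difference was 0.36 over the 16 with the core, of which 6 were called, and 0.49 over the 15 tested members whose window lacked it, of which 2 were called. In CCI and SNI at 7 dpi the medians were 0.47 and 0.39, and against naive 0.54 and 0.35. The 337 other genes with the core had a median of 0.14 in fixed morphine against saline (33 called higher), 0.02 in CCI and SNI and 0.21 against naive. The 8663 other genes without it had 0.22 (1195 called higher), 0.09 and 0.23. These medians were not tested.

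The other genes of the pathway were read from lists, to be set against the 13.6% of all genes called higher in fixed morphine and the 4.46% called lower. Of 21 interferon genes none reached the level for testing, and Ifnb1, the main type I interferon of macrophages, was listed at 0 in 27 libraries. Among the receptor and kinase genes Jak2, a kinase used by the interferon gamma receptor, rose in fixed morphine against fixed saline (1.81 ± 0.44, adjusted p 0.0158, limma).

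Of 19 sensing genes upstream of interferon 1 rose, the adaptor Traf3 (1.40 ± 0.32), and 3 fell: Tlr9 (-2.72 ± 0.43), Irf3 (-0.86) and Tmem173, which encodes STING (-0.61). These are against fixed saline, which was high-Cst3, while fixed morphine and naive were low-Cst3. Mean Irf3 was 11.3 FPKM in fixed morphine, 22.15 in fixed saline and 9.93 in naive. Mean Tmem173 was 123.8, 194.4 and 122 FPKM in that order, so neither was lower than naive. Naive values of Traf3 and Tlr9 are not given here. Of 11 tested brakes on the pathway Socs3 (2.24 ± 0.30) and Nlrc5 (0.72) rose and the DNase Trex1 fell (-1.40). Of 50 other interferon-induced genes 7 rose, Ccl12 (2.89), Ccl2 (2.66), Cd274 (1.19), Pml (0.94), Slfn9 (1.80), Trim21 (2.98) and Znfx1 (1.30), and Il15 fell (-1.67). Those 7 are 14% of the list, near the background. Of 24 genes of the interferon gamma programme 3 rose, Gbp5 (1.02), Gbp7 (1.24) and Tap2 (0.83), and 5 fell: B2m (-2.10), Psmb10 (-0.55) and the class II genes H2-Aa (-1.37), H2-Ab1 (-1.44) and H2-Eb1 (-2.12). The share that rose was 5.26% of the sensing genes, 18.2% of the brakes and 12.5% of the gamma programme, and the share that fell was 15.8%, 9.09% and 20.8%; these shares were not tested. In none of these lists was a gene called in SNI, in CCI and SNI together, in escalating morphine or in fixed morphine against naive. Against naive the lowest p of these genes was that of the peptide transporter Tap1 (0.93 ± 0.18, adjusted p 0.541, limma).

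The members varied together among libraries of one group. After group means were subtracted, the median pairwise correlation of the 41 members over 30 libraries was 0.29 (r, 628 of 820 pairs above 0), and that of all tested genes was 0.12. Without the 7 morphine libraries the members had 0.19 and all tested genes 0.12. The points share library, depth and cell make-up, so these are descriptions. The nuclear body protein Sp100 (r 0.88 with the mean of the other members), Oasl2 (0.84), Irf7 (0.83) and Ifit2 (0.82) followed the rest most closely. Isg15 (0.07), Ifi35 (0.03), Xaf1 (-0.13), Bst2 (-0.22) and Ifi27l2a (-0.35) did not follow it. The 10 genes outside the set most like its mean, by the same measure, were H2-D1 (0.90), Sema4a (0.87), Dyrk2 (0.87), B430306N03Rik (0.86), Pyhin1 (0.85), H2-K1 (0.85), Cd47 (0.85), Card10 (0.85), Itgb2l (0.84) and Slfn5 (0.84).

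Markers of other cells moved with some of these comparisons, and their part in the results was not tested. Summed over 13 neutrophil genes, fixed morphine had 1911 to 19080 FPKM, fixed saline 7476 to 29000 and naive 5799 to 8861. In CCI and SNI at 7 dpi the sum was 4386 to 9546, against 5799 to 63260 in the 9 controls. Of those 13 genes 1 had a positive difference in fixed morphine against fixed saline, 2 in CCI and SNI and 5 against naive. Of 8 astrocyte genes 7 and of 10 neuronal genes 9 had positive differences in fixed morphine against fixed saline (medians 0.70 and 0.50). Against naive these were again 7 and 9 (0.99 and 0.61), and in CCI and SNI 2 and 0. The sum of the immediate-early genes, which dissociation can induce, was highest in fixed morphine replicates 1 and 4 and escalating morphine replicate 1 (472, 568 and 408 FPKM), the 3 libraries with the highest scores.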

How the data were processed

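RNA was sequenced from CD11b-selected lumbar cord cells in 30 libraries of 12 groups, taken from titles and treatment labels. The authors deposited 1 table of FPKM values. Per the submitters' processing notes, the genome build listed was mm10, and the tools were featureCounts 1.4.6, Cufflinks 2.2.1, HISAT2 2.0.5.1 and DESeq2, with none named as the source of the FPKM. Per the labels' protocols, libraries were made with Smart-Seq2 and Nextera XT. The table holds no counts and depth is unknown, so no counting interval is given.

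Rows with repeated symbols were left out, and genes at 1 FPKM or more in at least 2 libraries were kept (11759). Values were taken as log2(FPKM + 1), a scale that understates changes of low genes, and tested with limma 3.58.1 (R 4.3.3) with an intensity trend, two-sided, with Benjamini-Hochberg adjustment over all genes. Injury groups and the 9 pooled controls entered 1 fit, the morphine and saline groups another, and the F-tests used all 30 libraries. The scripts were tested on simulated data. The members, lists and tests were chosen with earlier results of these data known. Values by library are given for members called, those with the 5 lowest p in the main contrasts and examples of each role; like genes were ranked by correlation with the member mean. Alternatives covered scaling, filter, pseudocount, array weights, a replicate block, and libraries left out. The Cst3 split, its covariate and the naive comparison were chosen after seeing the data.

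Coordinates are from GENCODE M21 and promoter letters from RefSeq GRCm38.p6. Comparisons with the same controls, or with the same morphine libraries, share those libraries. The rat cultures that the series design mentions are not analysed here.
Some items of the pathway and marker lists are not reported here.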

Additional observations from a re-analysis of the deposited data

Results flagged for a closer look

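Single values stood apart within fixed saline, by the gap to the next library as a share of the group's range. Of 60 such checks 4 were positive, where chance gives about 1 in 20. Fixed saline replicate 4 was low for Usp18 (1.41 FPKM), Isg15 (2.20 FPKM) and Ifitm3 (67.0 FPKM). Fixed saline replicate 3 was high for Dtx3l (12.7 FPKM).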

How the results depend on the processing

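In fixed morphine against fixed saline, 4 members were called with no filter, 2 with quantile normalization, 3 with median-ratio scaling, and 0 with the Cst3 covariate or with naive in place of saline. The median became 0.69 on TPM and -0.25 with the covariate, where Ifit2 (-0.28), Stat2 (-0.44) and Ifit3 (-0.15) reversed. The median of the regimens' difference became -0.46 with that covariate. Array weights called 4 members in CCI at 7 dpi, 1 in SNI, 13 in both together, 1 for the regimens' difference, 1 among the kinds of control and 11 among the 12 groups, where all genes called were 9.08%, 0.213%, 12.3%, 5.81%, 8.78% and 49.9% in that order. The 12-group count was 4 on TPM, 3 without the 3 libraries with the fewest genes and 0 with the covariate, and leaving those 3 out gave 1 among the kinds of control. SNT at 7 dpi called 1 among high-Cst3 libraries. Medians were -0.95 on TPM for SNT at 1 dpi and 0.82 for both injuries against SNT at 7 dpi, and without the 3 libraries 0.0897 for SNT at 2 dpi and 0.19 at 7 dpi. The causes were not tested.

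Leaving out 1 library gave 0 to 7 calls in SNT at 1 dpi, 0 to 5 at 2 dpi (median -0.75 to 0.0897), 0 to 2 at 7 dpi (median -0.25 to 0.19), 0 to 6 against SNT at 7 dpi, 1 to 8 in fixed morphine, 0 to 1 for the regimens' difference (median -0.08 to 0.31) and 0 to 11 among the 12 groups. Of single-member values 97 lost their call and 10 gained one, and 516 kept direction and side.

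The replicate numbers share only a number: in the injury and naive groups the correlation of deviations was -0.43 to 0.22 over 28 pairs, and -0.18 to 0.09 over 3 morphine pairs. With the replicate block, 0 members were called in fixed morphine and 0 among the 12 groups.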
